A study of Mus musculus with 12 samples.

Results

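The cytokine family of leukaemia inhibitory factor (LIF) and interleukin-6 was followed through 9 genes of a count table with 47480 gene symbols, each taken as the row of its own symbol. The 9 genes were the ligands Lif, Il6, Cntf and Clcf1, the receptor subunits Il6st, Lifr and Osmr, and the intracellular genes Stat3 and Socs3. They were measured by sequencing of polyA RNA from mouse trigeminal nerve, which carries sensation from the face, in 6 samples labelled normal nerve and 6 labelled plexiform neurofibroma, a benign tumour of the nerve sheath. The normal nerves were Nf1 flox/flox PostnCre- and the tumours Nf1 flox/flox PostnCre+. Both groups therefore carried floxed Nf1, whose product neurofibromin restrains RAS, and they differed in the Cre, which is named for Postn, so genotype and tumour state cannot be told apart. The labels used here give no age, sex or treatment, and do not say that the samples came from separate animals, so the p-values measure only the spread between these samples, which may be technical. Replicates are numbered 1 to 6 within each group as names only.

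Cytokines of this family bind receptors that share gp130, the product of Il6st. LIF and the CNTF-type ligands bring gp130 together with LIFR, oncostatin M can use OSMR, and receptor-bound Janus kinases then phosphorylate STAT3, which enters the nucleus and switches on target genes, among them the inhibitor Socs3. In peripheral nerve, CNTF is known as a product of myelinating Schwann cells, and LIF and interleukin-6 as injury-induced factors that act on sensory neurons and Schwann cells.

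Total counts per library ran from 14160025 to 19989351. Of 17236 genes tested, 1730 were called higher and 1488 lower in the tumours, and Nf1 itself measured 85.5 to 173 CPM (read counts scaled to 1000000 per library) in normal nerve against 69.6 to 93.1 CPM in tumours. It was called lower although the groups overlapped (log2 fold change -0.65, edgeR adjusted p = 0.0179). Each tissue held Schwann cell markers, with summed levels of 4406 to 12379 CPM in normal nerve and 10560 to 19010 CPM in the tumours. It also held sensory neuron markers, at 4425 to 9347 and 6351 to 8309 CPM, so the libraries contained RNA of neurons as well as of nerve sheath. There were 3 libraries that stood apart: normal nerve replicate 6 had central nervous system markers at a summed 1294.5 CPM, and normal nerve replicate 3 and plexiform neurofibroma replicate 1 had skeletal muscle markers at 339 and 1402 CPM.

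Lif and Cntf were the members called higher in the tumours, and the sequences just upstream of their transcription starts are shown because these genes moved together. The RefSeq table on build GRCm38 held a promoter for 8 of the 9 members, all but Clcf1. The Lif stretch is chr11:4257318-4257556 on the plus strand, upstream of the annotated gene, and the Cntf stretch is chr19:12765633-12765882 on the minus strand, which lies within an intron of the Zfp91 gene. Capitals mark matches, on either strand, to TGANTCA, the core bound by AP-1 factors, and to ACAANG, a short SOX-type core. The 2 stretches read, 5′ to 3′:

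Lif: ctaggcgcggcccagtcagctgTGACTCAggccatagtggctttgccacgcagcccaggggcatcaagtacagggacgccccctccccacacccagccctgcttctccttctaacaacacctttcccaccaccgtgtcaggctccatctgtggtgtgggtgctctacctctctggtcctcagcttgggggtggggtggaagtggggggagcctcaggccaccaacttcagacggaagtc

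Cntf: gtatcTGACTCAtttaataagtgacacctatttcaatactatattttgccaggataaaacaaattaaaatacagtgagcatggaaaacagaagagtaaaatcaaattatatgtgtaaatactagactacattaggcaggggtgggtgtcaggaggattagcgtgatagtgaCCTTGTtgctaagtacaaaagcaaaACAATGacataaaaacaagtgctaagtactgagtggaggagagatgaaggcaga

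Each held 1 match to the AP-1 core, with the letters TGACTCA, 228 bases before the RefSeq start of Lif and 245 bases before that of Cntf. The window of Il6, which was not tested, also held 1 match. Over 250 bases upstream, 6.749% of 32851 promoters in the same table held such a match. The SOX-type core matched at 79 bases (as CCTTGT on the strand shown) and 54 bases (as ACAATG) before the start of Cntf and not in the Lif window, and 36.325% of promoters held at least 1. Windows of Il6, Lifr, Socs3 and Stat3 also held a match to this core. No match to TTCNNNGAA, the core bound by STAT factors, lay in the Lif or Cntf window, while the Socs3 window held 1, and 7.02% of promoters held at least 1. Matches of letters describe the sequence and do not show that a factor binds there.

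Of the 9 members, 8 passed the filter on low counts and were tested, and Il6 did not pass. By the quasi-likelihood test of edgeR with Benjamini-Hochberg adjustment over all 17236 genes, 2 of the 8, Lif and Cntf, were called higher, where 10.0% of all tested genes were called higher. The test called 0 members lower, against 8.63% of all genes. At an unadjusted p under 0.05 there were 3 higher members, Lif, Cntf and Socs3, and 1 lower member, Lifr. The counts of higher and lower members were 3 and 0 by DESeq2 and 2 and 1 by limma-voom. Over the whole table DESeq2 called 2286 genes higher and 1954 lower, and limma-voom 2864 and 2701. The share of all genes at an unadjusted p under 0.05 is not given here. In either direction 18.7% of all genes were called. The median log2 fold change of the 8 members was 0.18, and that of all tested genes was -0.02.

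**Figure D1:**
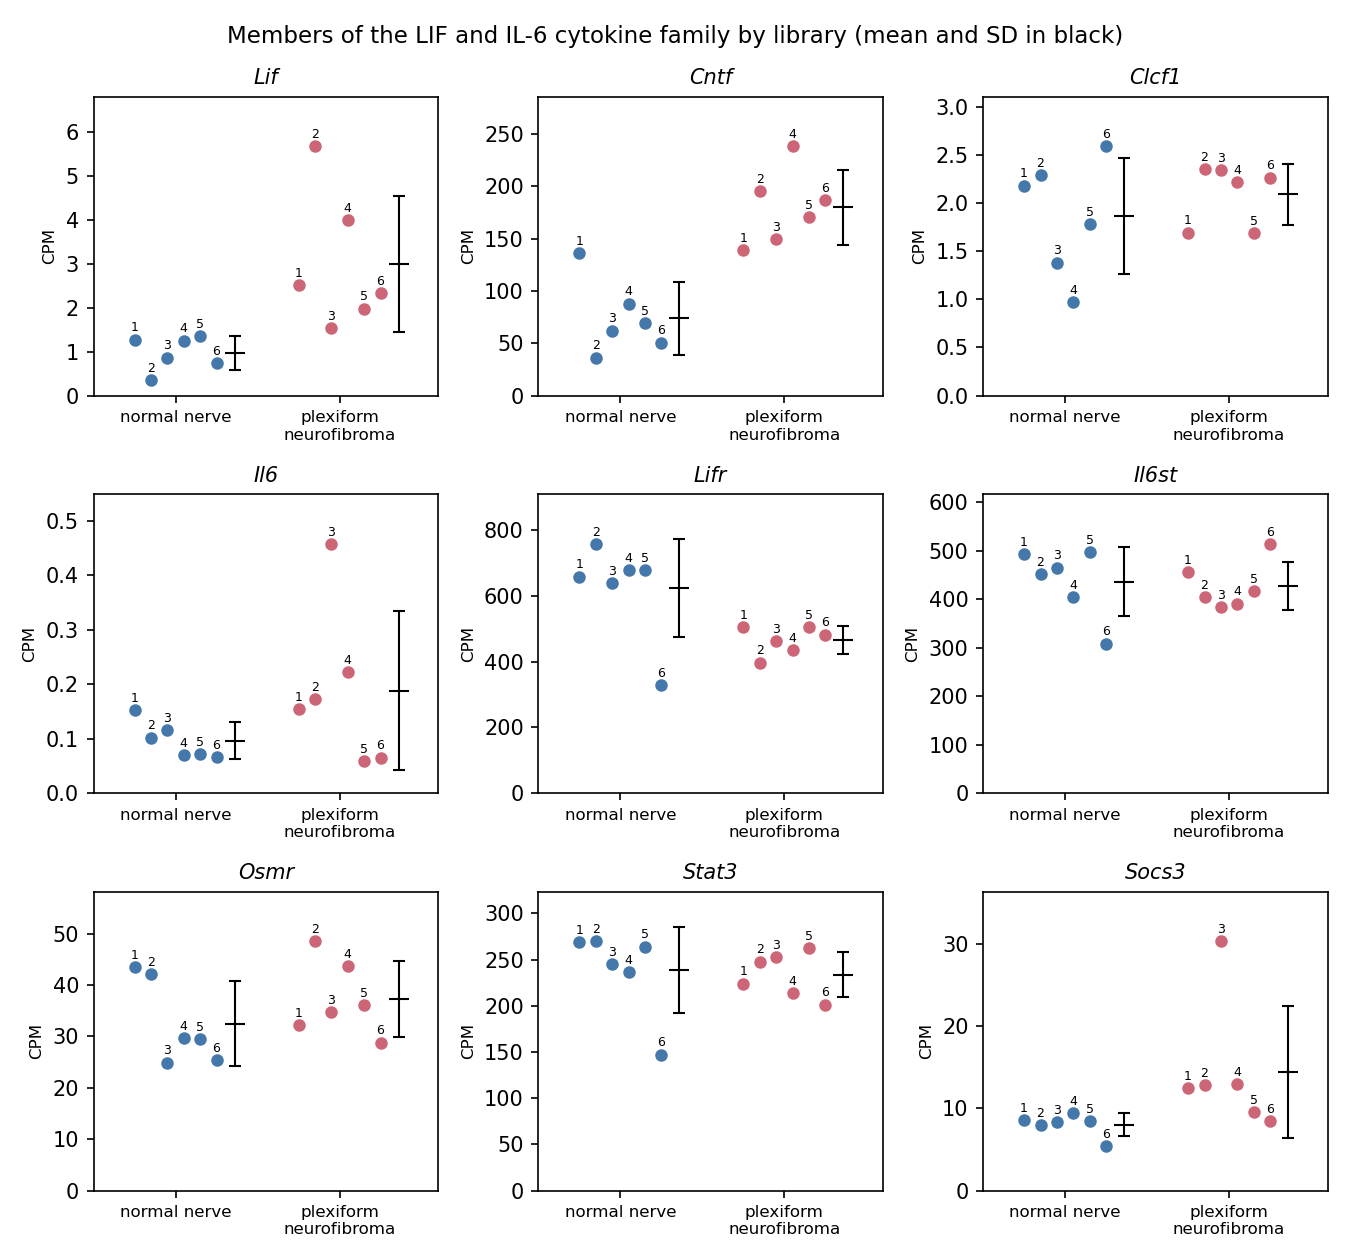
Level of each member in CPM (vertical axes, starting at 0) in 6 normal nerve libraries (blue) and 6 plexiform neurofibroma libraries (red); small digits are replicate numbers and black bars the mean and SD. The groups separate for Lif and Cntf, Lifr is low in normal nerve replicate 6 (329 CPM), and Socs3 is high in plexiform neurofibroma replicate 3 (30.4 CPM).

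Among the ligands, Lif (chromosome 11, 4257557 to 4272514) rose 3.09-fold. The 6 normal nerves measured 1.27, 0.356, 0.863, 1.25, 1.35 and 0.730 CPM, and the 6 tumours 2.51, 5.67, 1.53, 3.99, 1.98 and 2.33 CPM. Every tumour lay above every normal nerve, with the tumours more widely spread. The means were 0.971 ± 0.390 and 3.0 ± 1.55 CPM (SD, n = 6 per group), and the log2 fold change was 1.63 with a standard error of 0.37 (edgeR adjusted p = 0.0116). Lif was a low transcript in both groups: its counts were 7 to 25 reads per normal library and 30 to 99 per tumour library.

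Cntf (chromosome 19, 12763660 to 12765632), which encodes ciliary neurotrophic factor, rose 2.44-fold. The normal nerves measured 136, 36.2, 62.0, 87.9, 69.4 and 50.5 CPM, and the tumours 139, 195, 149, 238, 170.3 and 187 CPM. The groups did not overlap, although the highest normal nerve, replicate 1, came close to the lowest tumour. The means were 73.7 ± 35.2 and 179.8 ± 35.8 CPM (SD, n = 6 per group), with a log2 fold change of 1.29 (SE 0.27, edgeR adjusted p = 0.00835). Groups that did not overlap, with the tumours higher, were found for 4.40% of all tested genes, and in either direction for 7.39%. A transcript of the neighbouring gene Zfp91 is annotated through the exons of Cntf on the same strand, so the estimated counts of Cntf may include reads of that transcript. Zfp91 itself measured 185.9 ± 11.7 and 214 ± 19.7 CPM (SD, n = 6 per group), a log2 fold change of 0.20 that missed the threshold (edgeR adjusted p = 0.0649) but passed without normal nerve replicate 6 (edgeR adjusted p = 0.0321).

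Schwann cell markers were also higher in the tumours. Of 10 Schwann cell markers 5 were called higher and 0 lower, by DESeq2 8 and 0, and by limma-voom 9 and 0. Over the whole table edgeR called 1730 genes higher (10.0% of those tested), DESeq2 2286 and limma-voom 2864. Among the tumours, the marker sum was highest in replicate 2 (19010 CPM), which had the highest Lif but not the highest Cntf, and lowest in replicate 3 (10560 CPM), which had the lowest Lif. The lowest tumour Cntf was in replicate 1, whose sum of 15441 CPM was among the higher ones. Among the normal nerves, replicate 2 had the lowest sum (4406 CPM) and the lowest Lif and Cntf, and replicate 1 the highest sum (12379 CPM) and the highest Cntf. Replicate 6, with the next highest normal sum (8440 CPM), had low Cntf and Lif, so the match within groups was partial. In bulk tissue, a different number of cells of a type and a different amount of RNA per cell cannot be told apart.

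**Figure D2:**
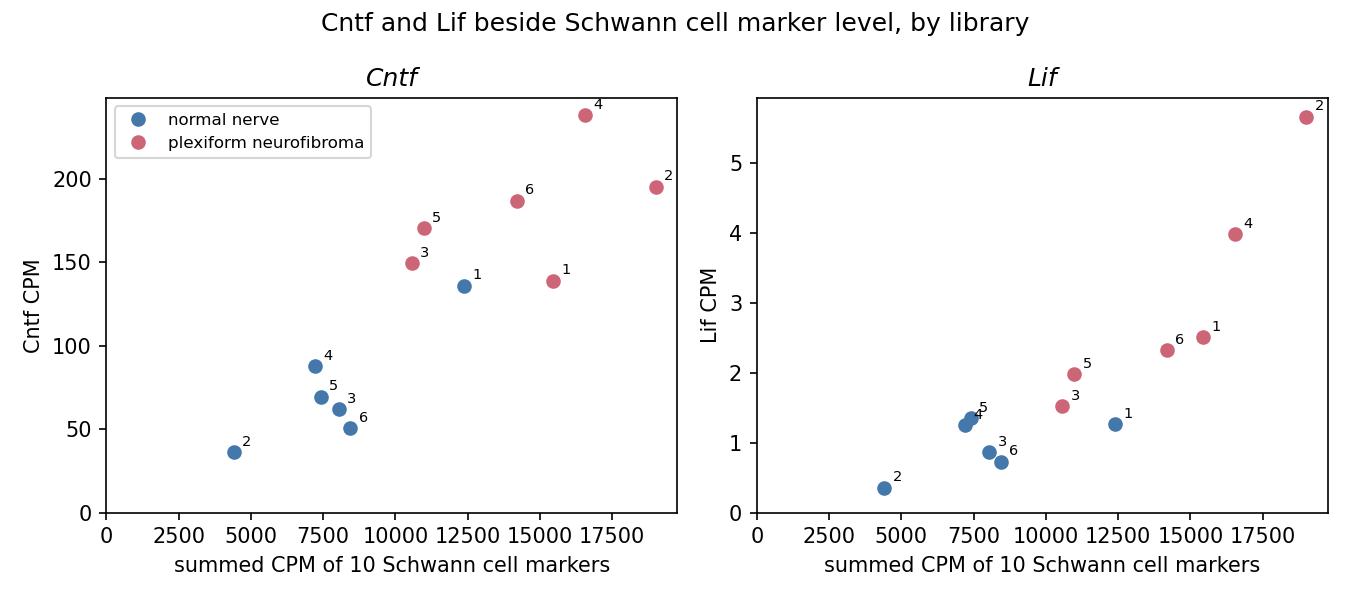
Cntf (left) and Lif (right) in CPM against the summed CPM of 10 Schwann cell markers, 1 point per library (blue, normal nerve; red, plexiform neurofibroma; digits, replicate numbers). Tumour replicates 2 and 4 are high on both axes, and normal nerve replicate 1, with a marker sum of 12379 CPM, lies among the tumours on the horizontal axis.

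With the Schwann cell marker score, the mean log2 CPM of the list, in the fit, the log2 fold change of Lif was 0.16 (edgeR adjusted p = 0.904) and that of Cntf 0.30 (edgeR adjusted p = 0.478). That fit called 0 genes higher and 2 lower in the whole table, and the score itself moved with the groups. Fibroblast markers had summed levels of 184 to 1264 CPM in normal nerve and 1467 to 3446 CPM in the tumours. Of these 8 markers 5 were called higher, against 10.0% of all tested genes. With their score Lif was at 0.74 (edgeR adjusted p = 0.430) and Cntf at 0.96 (edgeR adjusted p = 0.211). Macrophage markers ran from 59.8 to 293 and from 195 to 436 CPM, with 3 of 10 called higher, against the same 10.0%. With their score Lif was at 1.22 (edgeR adjusted p = 0.25) and Cntf at 0.93 (edgeR adjusted p = 0.217). With the sensory neuron score, which differed little between the groups, Lif remained at 1.55 (edgeR adjusted p = 0.0126) and Cntf at 1.29 (edgeR adjusted p = 0.00963).

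Clcf1 (chromosome 19, 4214238 to 4223490), which encodes cardiotrophin-like cytokine factor 1, was not called. The annotated genes AC109138.7, on the same strand, and Gm26115, on the other, overlap its position, so its estimated counts may include their reads. Its lowest, median and highest levels were 0.973, 1.98 and 2.59 CPM in normal nerves and 1.69, 2.24 and 2.35 CPM in tumours. The groups overlapped almost completely, and the log2 fold change was 0.16, with a 95% interval from -0.34 to 0.66 (edgeR adjusted p = 0.653). Il6 (chromosome 5, 30013114 to 30019981) was near the limit of detection. The normal nerves held 3, 2, 2, 1, 1 and 1 reads and the tumours 3, 3, 9, 4, 1 and 1. The 9 reads of plexiform neurofibroma replicate 3 were the highest count. In CPM, 4 of the 6 tumours lay above the highest normal nerve (0.152 CPM). These were replicates 1, 2, 3 and 4, at 0.154, 0.172, 0.458 and 0.222 CPM. The ratio of summed counts per total depth was 1.96, with an exact 95% Poisson interval from 0.884 to 4.66 that covers counting error only, and a two-sided exact permutation test of the CPM values gave p = 0.139. A change in Il6 was not detectable at this depth.

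Further ligands of the family were examined beside the members. Ctf1, which encodes cardiotrophin-1, had a log2 fold change of 0.55 and was not called (edgeR adjusted p = 0.114). Osm, which encodes oncostatin M and lies 16530 bases from Lif on chromosome 11, had 6 reads in all normal nerves together and 28 in all tumours. That ratio per depth was 4.36, with an exact 95% Poisson interval from 1.77 to 12.9. The two-sided exact permutation p for Osm was 0.00866, and with no filter on low counts its edgeR adjusted p was 0.0995. Il11, Ebi3, Ctf2 and Il27 summed to 25, 34, 10 and 5 reads in normal nerve and 30, 58, 3 and 3 in the tumours. Il31 had 0 reads in all 12 libraries, which allows up to 0.0299 CPM over the normal nerves together and 0.0280 CPM over the tumours.

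The test called 0 of the 3 receptor subunits among the members, against 10.0% of all tested genes called higher and 8.63% lower. Of these 3, only Lifr was lower at an unadjusted p under 0.05 and called lower by limma-voom, and DESeq2 called none. Il6st (chromosome 13, 112464070 to 112510086), the gene of gp130, had lowest, median and highest levels of 308, 458 and 496 CPM in normal nerves and 384, 410 and 514 CPM in tumours. These ranges overlapped, and the log2 fold change was -0.03 with a 95% interval from -0.28 to 0.22 (edgeR adjusted p = 0.880). The sign of this value changed with the transcript length correction and with some marker scores in the fit. Osmr (chromosome 15, 6813577 to 6874969) measured 24.9, 29.6 and 43.5 CPM (lowest, median and highest) in normal nerves and 28.8, 35.4 and 48.5 CPM in tumours. Its groups overlapped too, with a log2 fold change of 0.20 and a 95% interval from -0.17 to 0.56 (edgeR adjusted p = 0.422).

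Lifr (chromosome 15, 7090614 to 7197489), which encodes the LIF receptor, was at 659, 758, 638, 678, 678 and 329 CPM in the normal nerves and at 506, 396, 462, 435, 505 and 482 CPM in the tumours. Normal nerves 1 to 5 lay above every tumour, and replicate 6 lay below every tumour. Over all libraries the log2 fold change was -0.42 (95% interval from -0.77 to -0.08), which was not called (edgeR adjusted p = 0.0786). Without normal nerve replicate 6, the library with central nervous system markers, Lifr was at 0.681 of the normal level and was called lower (log2 fold change -0.56, SE 0.08, edgeR adjusted p = 0.000657). Without all 3 libraries that stood apart the log2 fold change was -0.60 (edgeR adjusted p = 0.00225). After a correction for transcript length it was -0.27 (edgeR adjusted p = 0.209), and Lifr has the longest transcript of the 9 members, at 9655 bases. With the macrophage and fibroblast scores in the fit the log2 fold change of Lifr was -0.07 and -0.14 (edgeR adjusted p = 0.880 and 0.759). With the Schwann cell score it was -0.44 (edgeR adjusted p = 0.463). The macrophage, fibroblast and Schwann cell fits called 81, 42 and 0 genes higher in the whole table and 110, 28 and 2 lower. With the sensory neuron score Lifr was called lower, at -0.32 (edgeR adjusted p = 0.00361).

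Of the 5 other receptor subunits, all tested, 1 was called higher and 2 lower, against 10.0% and 8.63% of all tested genes. Cntfr, the anchored subunit that gives CNTF its specificity, fell to 0.737 of its normal level, from 49.1 ± 4.79 to 36.2 ± 3.43 CPM (SD, n = 6 per group, edgeR adjusted p = 0.00499). Its 6 normal nerves lay between 44.0 and 56.2 CPM and its 6 tumours between 31.0 and 40.8 CPM, without overlap. Il31ra, the interleukin-31 receptor of itch-sensing neurons, fell to 0.498 of its normal level (10.8 ± 3.69 to 5.40 ± 1.6 CPM, SD, n = 6 per group, edgeR adjusted p = 0.0204), with overlap. Il27ra rose 2.88-fold (edgeR adjusted p = 0.0228) at 0.317 ± 0.222 and 0.918 ± 0.308 CPM (SD, n = 6 per group), and lost its call when normal nerve 5, tumour 4 or tumour 6 was left out (edgeR adjusted p = 0.0527, 0.0592 and 0.0504). Il6ra and Il11ra1, which bind interleukin-6 and interleukin-11, had log2 fold changes of 0.29 and 0.47 and were not called (edgeR adjusted p = 0.405 and 0.0834).

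**Figure D3:**
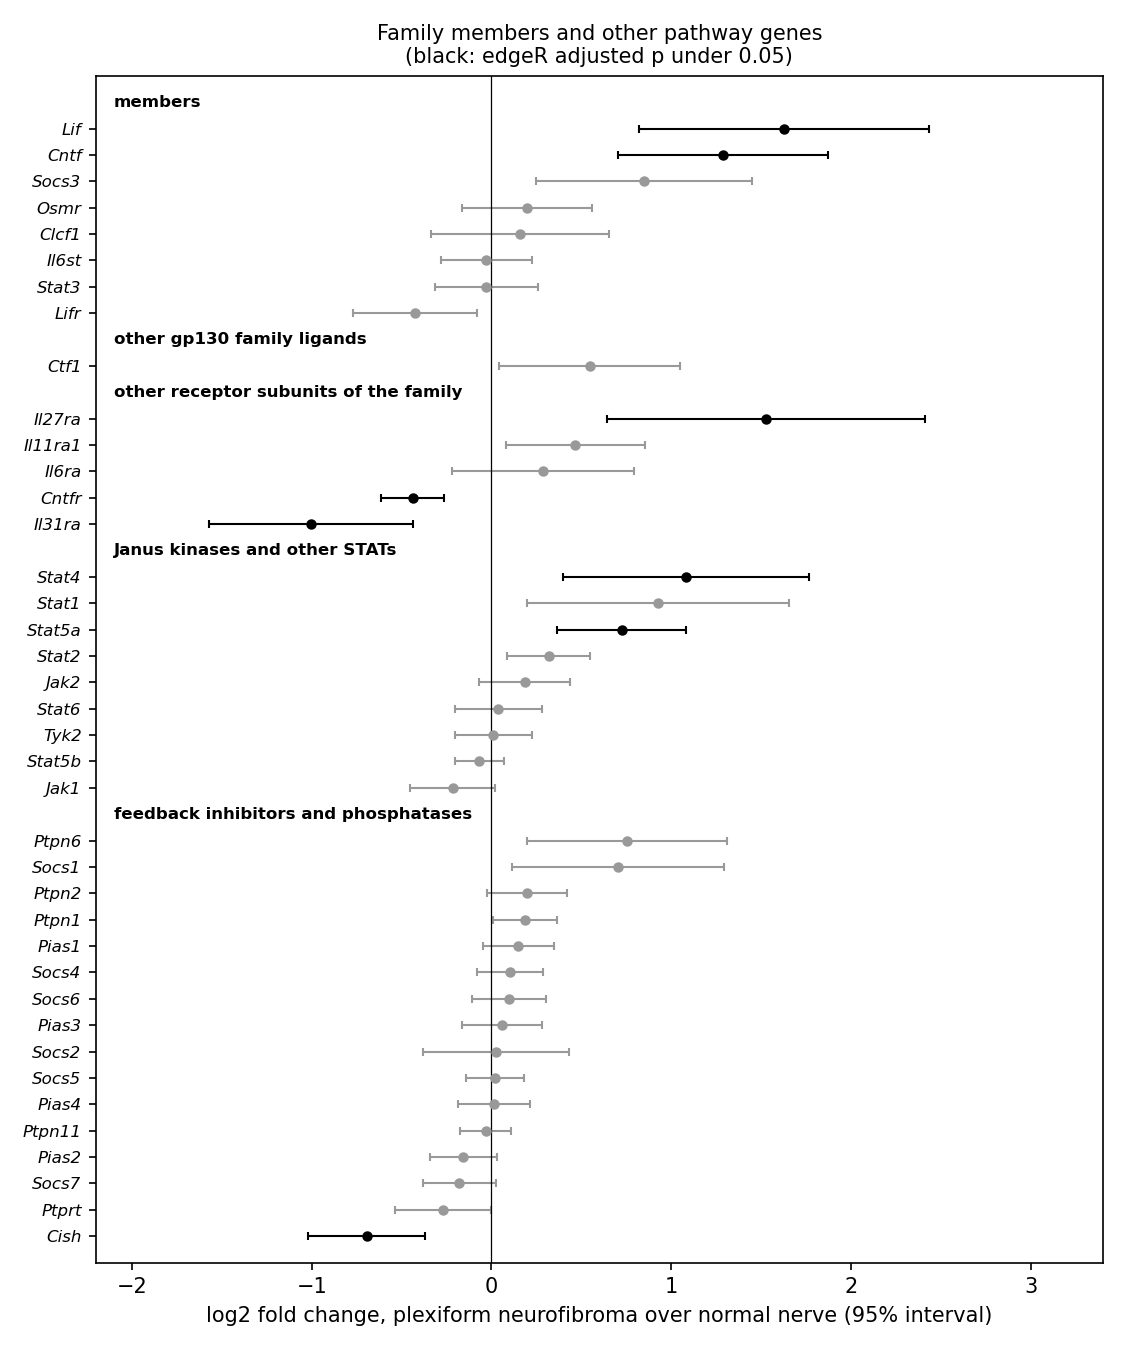
Log2 fold change (horizontal axis, plexiform neurofibroma over normal nerve) with its 95% interval for the 8 tested members and for other tested genes of the pathway that are reported, grouped by role; black points passed an edgeR adjusted p of 0.05 and grey points did not. Lif and Cntf lie to the right, Cntfr, Il31ra and Cish to the left, and Il6st and Stat3 sit at -0.03.

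Stat3 (chromosome 11, 100885098 to 100939540) was not called. It measured 147, 254 and 270 CPM (lowest, median and highest) in normal nerves and 201, 236 and 262 CPM in tumours. Normal nerve replicate 6 was again the lowest library, and the other libraries overlapped. The log2 fold change was -0.03 with a 95% interval from -0.32 to 0.26 (edgeR adjusted p = 0.893), and its sign depended on the setting.

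Socs3 (chromosome 11, 117966079 to 117970047), the feedback inhibitor that binds gp130 and the Janus kinases, lay at the threshold. The normal nerves measured 8.58, 7.93, 8.29, 9.45, 8.48 and 5.38 CPM, and the tumours 12.5, 12.8, 30.4, 13, 9.55 and 8.41 CPM. Tumours 1 to 5 exceeded every normal nerve and replicate 6 fell within the normal range, with replicate 3 far above the rest. The log2 fold change was 0.85 with a standard error of 0.28 and a 95% interval from 0.25 to 1.45 (edgeR adjusted p = 0.0504). DESeq2 called it (adjusted p = 0.0179), as did edgeR with a stricter filter on low values (adjusted p = 0.0478). It was not called by limma-voom (log2 fold change 0.62, adjusted p = 0.113), by edgeR with no filter (adjusted p = 0.0898) or without the 3 libraries that stood apart (edgeR adjusted p = 0.130). That last fit kept plexiform neurofibroma replicate 3. Without plexiform neurofibroma replicate 3 the log2 fold change was 0.49 (edgeR adjusted p = 0.0579).

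Plexiform neurofibroma replicate 3 also differed in other genes. Omp, the olfactory marker protein of nasal sensory neurons, stood at 51.9 CPM there and at no more than 9.64 CPM in the other 11 libraries. Cnga2, an olfactory ion channel subunit, and Ltf, the secreted protein lactoferrin, both chosen after their values were seen, were at 3.81 and 24.4 CPM against at most 0.499 and 3.86 CPM elsewhere. Bcl3 and Cebpd, STAT3-responsive genes, were at 9.31 and 37.3 CPM in that library, where the highest other tumour had 5.37 and 26.5 CPM. Cebpd was also called higher over all tumours (2.23-fold, edgeR adjusted p = 0.0191), and Bcl3 was not called (edgeR adjusted p = 0.559). Normal nerve replicate 4 had Bcl3 at 6.67 CPM. Other STAT3-responsive genes were mixed there. Myc was also the highest of the tumours (10.6 CPM), whereas Gfap and Mcl1 were the lowest (20.9 and 91.5 CPM). The part of nasal tissue in the level of Socs3 was not tested, and the value without the library is given above.

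Of 9 Janus kinases and other STATs, all tested, 2 were called higher and 0 lower. At an unadjusted p under 0.05 these counts were 4 and 0, by DESeq2 4 and 0, and by limma-voom 2 and 1. Of all tested genes edgeR called 10.0% higher and 8.63% lower. Stat5a rose 1.65-fold, from 8.12 ± 1.99 to 13.4 ± 1.90 CPM (SD, n = 6 per group, edgeR adjusted p = 0.0115). It ends 72 bases inside Stat3 on the opposite strand, and whether the counting used strand is not given in the sources used here. Stat4 rose 2.12-fold at 0.473 ± 0.230 and 1.02 ± 0.206 CPM (SD, n = 6 per group, edgeR adjusted p = 0.0321). Leaving out normal nerve 2, 4 or 5, or tumour 2, 4 or 6, ended that call, with edgeR adjusted p-values from 0.0504 to 0.0799. The kinases Jak1, Jak2 and Tyk2 had log2 fold changes of -0.22, 0.19 and 0.01, and none was called (edgeR adjusted p = 0.174, 0.277 and 0.956).

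The list of 16 other feedback inhibitors and phosphatases held 0 genes called higher and 1 called lower, against 10.0% and 8.63% of all tested genes. The corresponding counts were 3 and 2 at an unadjusted p under 0.05, 1 and 1 by DESeq2, and 2 and 2 by limma-voom. The lower gene was Cish, a SOCS family inhibitor best known from STAT5 signalling. It fell to 0.618 of its normal level, from 7.11 ± 1.03 to 4.39 ± 0.830 CPM (SD, n = 6 per group, edgeR adjusted p = 0.00938), with all normal nerves at or above 5.51 CPM and all tumours at or below 5.38 CPM. Socs1 and Ptpn6, the phosphatase SHP-1, had log2 fold changes of 0.70 and 0.75 and were not called (edgeR adjusted p = 0.0859 and 0.0573). The median of this list was 0.04 on the log2 scale.

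Among 26 genes known to respond to STAT3 or gp130, 22 were tested, 6 were called higher and 2 lower, with a median log2 fold change of 0.16. The shares over all tested genes were 10.0% higher and 8.63% lower. Timp1, an inhibitor of matrix proteases, rose 4.45-fold (1.27 ± 0.611 to 5.69 ± 2.48 CPM, SD, n = 6 per group, edgeR adjusted p = 0.00473). Ccl2, a chemokine for monocytes, rose 4.37-fold (1.08 ± 0.507 to 4.73 ± 1.78 CPM, SD, n = 6 per group, edgeR adjusted p = 0.00407). Steap4, a metalloreductase, rose 3.12-fold (8.29 ± 2.44 to 25.9 ± 10.1 CPM, SD, n = 6 per group, edgeR adjusted p = 0.00331). Mcl1, a survival factor of the BCL2 family, rose 1.29-fold (edgeR adjusted p = 0.0147). In these 4 genes, taken for the smallest p-values of the list, every tumour lay above every normal nerve. That held for 4.40% of all tested genes. The other genes called higher, Cebpd and Cd14, named after their values were seen, rose 2.23-fold and 1.77-fold with overlap (edgeR adjusted p = 0.0191 and 0.0214). Pim1 and Pim3, kinases also induced through STAT3 and named after their values were seen, fell to 0.727 and 0.799 of the normal level (edgeR adjusted p = 0.0180 and 0.0212), and Pim3 lost its call when normal nerve 2, 3 or 4 was omitted (edgeR adjusted p = 0.0532, 0.0551 and 0.0532). The list therefore moved in both directions, and Gfap, Myc and Bcl2l1 had log2 fold changes of 0.03, 0.12 and -0.0036 (edgeR adjusted p = 0.979, 0.678 and 0.982). Most of these genes also answer to other signals, and fibroblast markers, given above, moved with the groups in the same libraries. With the fibroblast score in the fit, the log2 fold changes were 1.54 for Timp1, 1.21 for Ccl2, 0.83 for Steap4 and 0.19 for Mcl1 (edgeR adjusted p = 0.138, 0.172, 0.149 and 0.353). In that fit 42 genes of the whole table were called higher and 28 lower, so the loss of these calls does not separate the part of fibroblasts from that of the groups.

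Genes upstream of Lif and Il6 were examined next. Of 13 inducers, receptors for them and NF-kB subunits, 9 were tested, 5 were called higher and 0 lower. The same counts came from DESeq2, from limma-voom and at an unadjusted p under 0.05. By edgeR 10.0% of all tested genes were called higher and 8.63% lower. Relb rose 1.88-fold, Nfkb2 1.64-fold and Rela 1.46-fold, all subunits of NF-kB (edgeR adjusted p = 0.00810, 0.0277 and 0.00960). Tnfrsf1a, a receptor for tumour necrosis factor, rose 1.28-fold, and Il1rap, a subunit of the interleukin-1 receptor named after its values were seen, rose 1.58-fold (edgeR adjusted p = 0.0245 and 0.0385). Only 2 or 3 of the 5 were called when normal nerve 4 or 5, or tumour 2, 4 or 6, was left out. Nfkb2 lost its call without normal nerve 2, 4 or 5 and without tumour 2, 4 or 6 (edgeR adjusted p from 0.0515 to 0.0701). That of Tnfrsf1a was lost without tumour 2 or 4 and with the length correction (edgeR adjusted p = 0.0544, 0.0517 and 0.0673). Il1rap lost its call without normal nerve 3, 4 or 5 and without tumour 1, 2, 4 or 6 (edgeR adjusted p from 0.0551 to 0.0905). Relb measured 4.24 to 7.83 CPM in normal nerve and 8.25 to 14.8 CPM in the tumours, without overlap. The cytokines Tnf, Il1a and Il1b themselves did not pass the filter, with means of 0.0931, 0.161 and 0.397 CPM in normal nerves and 0.221, 0.231 and 0.968 CPM in tumours.

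Of 12 nerve injury genes with known links to gp130 cytokines, 11 were tested. Among them edgeR called 0 higher and 0 lower, against 10.0% and 8.63% of all tested genes. At an unadjusted p under 0.05 there was 1 higher gene, Vip, and DESeq2 and limma-voom called 0 in each direction. Vip, a neuropeptide gene that LIF can induce in neurons, had lowest, median and highest levels of 0, 0.463 and 8.63 CPM in normal nerves and 0, 16.0 and 25.7 CPM in tumours. Its log2 fold change of 2.84 had a 95% interval from 0.25 to 5.42 (edgeR adjusted p = 0.111). Leaving out normal nerve replicate 6 made Vip a called gene (edgeR adjusted p = 0.0214). Sprr1a, an axon growth gene, had a log2 fold change of -1.01 (edgeR adjusted p = 0.304). The injury factor Atf3, which nerve handling can also induce, was at 18.2 ± 15.8 and 12.7 ± 5.34 CPM (SD, n = 6 per group, edgeR adjusted p = 0.480).

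The balance between members was read within each library, which does not depend on how libraries are scaled, as the log2 ratio of 2 genes' CPM for 5 chosen pairs. Lif rose against Lifr: the ratio ran from -10.65 to -8.60 in normal nerve and from -8.14 to -6.10 in the tumours. The mean difference was 1.87 (two-sided exact permutation p = 0.00216, the smallest these 6 against 6 samples can give, 0.0108 adjusted over 5 pairs). By group medians the difference was smaller, at 1.32 (adjusted exact permutation p = 0.0325). Lifr fell against Il6st by 0.36, from 0.49 ± 0.24 to 0.12 ± 0.15 (SD, n = 6 per group, exact permutation p = 0.0130, adjusted 0.0216), and by group medians the adjusted exact permutation p was 0.103. The single normal nerve within the tumour range was replicate 6. Socs3 rose against Stat3 by 0.73 (exact permutation p = 0.00649, adjusted 0.0162), with tumour replicate 3 at -3.05 and the other tumours between -4.76 and -4.03. Osmr rose against Lifr by 0.60 (exact permutation p = 0.0325, adjusted 0.0406), and 7 of the 12 fits that left out 1 library no longer passed, with adjusted exact permutation p-values up to 0.0812. Osmr against Il6st had a difference of 0.23 that did not pass (exact permutation p = 0.297).

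**Figure D4:**
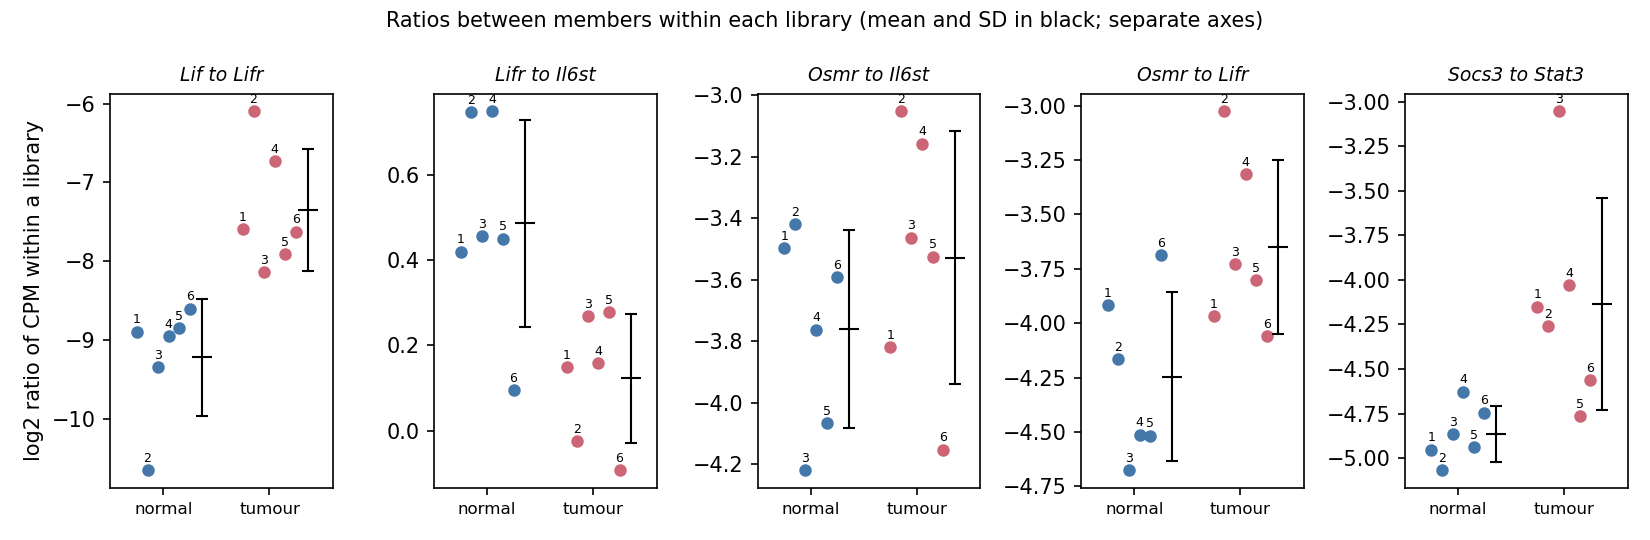
Log2 ratio of 2 members' CPM within each library (vertical axes, a separate scale in each panel) in normal nerve (blue) and plexiform neurofibroma (red); digits are replicate numbers and black bars the mean and SD of 6 libraries. The groups separate for Lif to Lifr, overlap through normal nerve replicate 6 for Lifr to Il6st, and overlap widely for Osmr to Il6st.

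Levels were compared between genes only after division by the length of the longest annotated transcript. In normal nerve the order from high to low was Cntf, Lifr, Il6st, Stat3, Osmr, Socs3, Clcf1, Lif and Il6. Cntf averaged 68.7 ± 32.8, Lifr 64.6 ± 15.5, Il6st 50.2 ± 8.21 and Stat3 39.5 ± 7.74 CPM per kb (SD, n = 6). Cntf exceeded Lifr in 3 of the 6 libraries, so these neighbours were not ordered beyond their spread, and Lifr exceeded Il6st in 5 of 6. Osmr and Socs3, at 5.92 ± 1.5 and 3.14 ± 0.544 CPM per kb (SD, n = 6), formed a middle tier. Clcf1, Lif and Il6 were lowest at 0.526 ± 0.171, 0.241 ± 0.0970 and 0.0410 ± 0.0145 CPM per kb (SD, n = 6). In the tumours Cntf stood above every other member in all 6 libraries, at 168 ± 33.3 CPM per kb, beside Il6st at 49.2 ± 5.71 and Lifr at 48.1 ± 4.42 (SD, n = 6). Il6st exceeded Lifr in 3 of those 6 libraries. In both groups the level of Cntf may include reads of the Zfp91 transcript annotated through its exons, and their share was not measured. Lif, at 0.745 ± 0.385 CPM per kb, exceeded Clcf1, at 0.589 ± 0.0888 CPM per kb (SD, n = 6 per group), in 4 of the 6 tumours, whereas Clcf1 exceeded Lif in 5 of the 6 normal nerves.

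**Figure D5:**
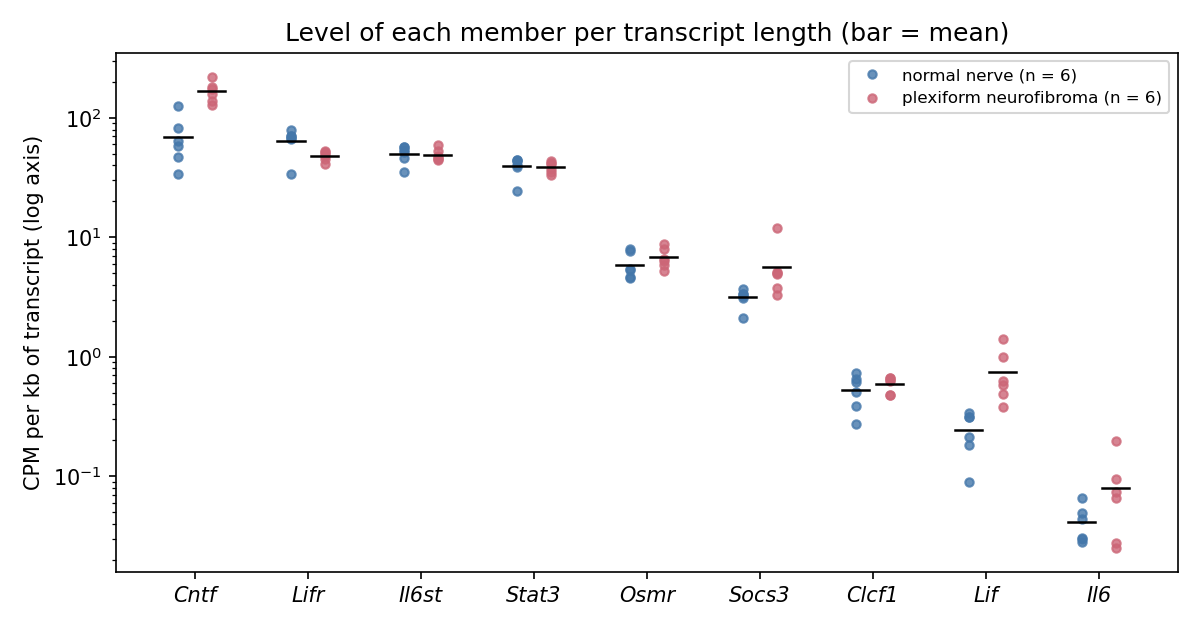
CPM per kb of the longest annotated transcript (vertical axis, log scale) for each member in normal nerve (blue) and plexiform neurofibroma (red), 6 libraries each, with the mean as a bar. Cntf, whose counts may include reads of Zfp91, is the highest member in the tumours (mean 168 CPM per kb), Il6 the lowest in both groups, and Lif moves from below Clcf1 to its level.

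For each tested member, the 2 genes whose log2 CPM followed it most closely over the 12 libraries were taken from at least 11627 genes with a mean of at least 5 CPM. These correlations are descriptions over 12 points that share the group difference, so the value after removal of group means stands beside each. Both values are high in part because the closest genes were picked from so many, and neither was tested. Lif was followed most closely by Gpbp1l1 (Pearson r = 0.973, 0.928 with group means removed) and Frmd8 (0.964, 0.911). Cntf was followed by Jam3 (0.977, 0.946), which encodes a junctional adhesion molecule, and Nipal1 (0.975, 0.918). For Lifr these genes were Trim36 (0.976, 0.966) and Magi3 (0.972, 0.969), for Stat3 Bcam (0.951, 0.960) and Prkx (0.942, 0.982), and for Osmr Col24a1 (0.918, 0.915) and Tubb6 (0.874, 0.870). For Clcf1 they were Agrn (0.912, 0.908) and Ap1g2 (0.899, 0.894), and for Il6st Asxl3 (0.853, 0.853) and Zcchc6 (0.844, 0.851). Socs3 followed Omp (0.932, 0.886) and Polr1e (0.822, 0.691), and without plexiform neurofibroma replicate 3 the values for Omp were 0.782 and 0.529 over 11 libraries. Jam3 rose 1.67-fold and Nipal1 2.80-fold (edgeR adjusted p = 0.0169 and 0.00657), while Trim36, like Lifr, was lowest in a normal nerve, at 186 CPM against 202 to 270.0 CPM in the tumours.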

How the data were processed

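A single table of estimated (expected) counts, not normalized, with 12 samples as columns, was deposited by the authors. The submitters' processing notes name the build mm10 and the tools STAR 2.4.2a, Salmon 0.60, FastQC and DESeq2 without saying what each did. The counting annotation and strand setting were not given in the sources used here. Per the labels' protocols, libraries were made from polyA RNA. The authors' expected counts were here rounded to whole numbers before testing, and columns were assigned to samples by title.

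Members and gene lists were chosen with earlier results of these data known. All genes passing filterByExpr (17236) were fitted with edgeR 4.0.16 in R 4.3.3 (TMM factors, robust quasi-likelihood F test, no covariate), adjusted over all of them by the Benjamini-Hochberg method and called under 0.05. CPM uses TMM-scaled library sizes. Ratios of members were tested by exact permutation over 924 splits, on log2 CPM with a prior count of 2. Marker scores were mean log2 CPM of a list. The pathway genes named were the called genes of each list with the smallest p-values, at most 4, or the top 2 of a list with no call. Some genes this rule gives, and values of some markers, are not reported here. DESeq2 1.42.0, limma-voom (limma 3.58.1), other factors and filters, covariates, a transcript length correction and leaving out libraries were alternatives; the fibroblast score and the fit without 3 libraries were chosen after seeing the data. On simulated data with known changes the edgeR test was tested first. Gene positions come from GENCODE vM21 on GRCm38, the assembly of mm10, by symbol (45187 directly, 620 by an older symbol, 1673 unmatched).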

Additional observations from a re-analysis of the deposited data

Results flagged for a closer look

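In 62 groups of 6 libraries examined, 7 values stood apart from the rest of their group by more than Dixon's 95% limit, of which chance gives about 1 in 20 groups. In normal nerve replicate 6, Lifr (328.8 CPM), Stat3 (147 CPM) and Socs3 (5.38 CPM) were the lowest of their group and Vip (8.63 CPM) the highest. That library also had the highest central nervous system marker sum, 1294.5 CPM against at most 349 CPM in the other normal nerves, and the lowest sensory neuron marker sum, 4425 CPM. The part of other tissue in these values was not tested, and leaving the library out gave log2 fold changes of -0.56 for Lifr, -0.14 for Stat3 and 0.76 for Socs3 (edgeR adjusted p = 0.000657, 0.213 and 0.0692). In plexiform neurofibroma replicate 3, Socs3 was the highest of its group at 30.4 CPM, in the library with Omp at 51.9 CPM. In normal nerve replicate 2, Sprr1a was the highest of its group at 4.43 CPM and the log2 ratio of Lif to Lifr the lowest at -10.65. That ratio rests on 7 reads of Lif, and the same library had the lowest Schwann cell marker sum (4406 CPM) and the lowest fibroblast marker sum (184 CPM).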

How the results depend on the processing

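Lif and Cntf were called higher in every fit that left out 1 library, with log2 fold changes of 1.35 to 1.77 and 1.15 to 1.56, and under other factors, filters and tools, but not with the Schwann cell, macrophage or fibroblast score in the fit. With those scores 0 members were called higher, 0 pathway genes were called, and 0, 81 and 42 genes of the whole table were called higher and 2, 110 and 28 lower. A lost call need not mean a smaller fold: Cntfr was at -0.49 and -0.51 with the macrophage and fibroblast scores, Il31ra at -1.37 with the Schwann cell score, and Cish between -0.56 and -0.53 with the 3 scores. Members called lower rose from 0 to 1, Lifr, with limma-voom, with the sensory neuron score and without the 3 libraries that stood apart. limma-voom called 2864 genes higher and 2701 lower, and with no filter 902 were lower. Leaving out 1 library gave 1092 to 2544 genes called higher (1092 without plexiform neurofibroma replicate 4), 801 to 2487 lower (2487 without normal nerve replicate 6, and 976, 907, 942, 801 and 934 without normal nerves 4 and 5 and tumours 2, 4 and 6), 2 to 3 members higher, 0 to 1 lower and 14 to 27 pathway genes. By group medians the ratios of Lifr to Il6st (-0.30, adjusted exact permutation p = 0.103) and Osmr to Lifr (0.57, 0.0758) did not pass, and the latter ran from 0.47 to 0.71 without 1 library. Signs changed for values near 0. With the sensory neuron, macrophage and fibroblast scores and the length correction, Il6st was at 0.016, 0.081, 0.017 and 0.10 and Stat3 at 0.044, 0.27, 0.16 and 0.055. Without 1 library they ran from -0.11 to 0.011 and from -0.14 to 0.014, positive at 0.0077 and 0.011 for Il6st (normal nerves 1 and 5) and at 0.0066, 0.014, 0.0010 and 0.010 for Stat3 (normal nerves 1, 2 and 5 and tumour 6). With the Schwann cell score Osmr was at -0.015 and Nfkb2 at -0.037, and Sprr1a was at 0.024 and 0.30 with the macrophage and fibroblast scores. The cause of these changes was not tested. No paired analysis was possible because the titles give the groups no shared replicate numbers. Depth limits Il6 and the low ligands, at 1 to 9 reads of Il6 per library.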
